A study of Mus musculus with 34 samples.

Results

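The apolipoprotein genes Apoa1, Apoa2, Apoa4, Apoa5, Apob, Apoc1, Apoc3, Apoe, Apoh and Apom were followed across 6 groups of mouse livers. They were chosen by gene symbol, with no measured value in the choice, and are 10 of the 55487 gene IDs in the deposited tables. All 10 were present in both tables and passed the filter on low values, with between 226 reads (Apom) and 1290076 reads (Apoe) for a gene in a library.

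Apolipoproteins are the protein part of the particles that carry fat and cholesterol in blood, and the liver makes most of them. Apob is the scaffold of very low density lipoprotein (VLDL) and stays with its particle for life, whereas Apoa1 and Apoa2 are the main proteins of high density lipoprotein (HDL). The small C proteins, Apoe and Apoa5 move between particles and set how fast these are emptied of fat and taken up again by the liver. Like other secreted proteins, apolipoproteins enter the endoplasmic reticulum (ER) as they are made.

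The RNA came from livers of male mice aged 3 months. In the first table, 6 wild-type (WT) mice had been given PBS, 6 WT mice TNFa for 2 hours, 5 PiZ mice PBS, and 5 mice labelled PiZ-p50-KO, which also carry PiZ and by the design text lack p50 (-/-), PBS. In the second table, 6 WT mice had been given the vehicle DMSO and 6 WT mice tunicamycin for 24 hours, all by intraperitoneal injection. PiZ mice carry the Z form of human alpha-1 antitrypsin, a secreted protease inhibitor that polymerizes in the ER of hepatocytes. TNFa is a cytokine that activates the transcription factor NF-kB, of which p50, the product of Nfkb1, is a subunit, and tunicamycin blocks N-linked glycosylation and so causes ER stress. The strain, the doses, the promoter of the transgene and the deleted part of Nfkb1 are not given in the sources used here. The labels put the tables in batch 1 and batch 2, so levels were compared within a table only.

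Libraries held 35458429 to 53981673 reads in the first table, except for WT PBS library 2 with 10213252 reads, and 34307572 to 47796468 reads in the second. WT PBS library 2 stood apart. Protein-coding genes took 72.2% of its reads, where they took 97.3% to 97.8% elsewhere in the table, and the 10 apolipoprotein genes took 0.512% of its reads, against 3.32% to 5.49%. Its albumin (Alb) level was 12.22 log2 CPM, against 15.43 to 16.49. It is left out of the values below, and where it is kept this is said. Shares of reads, ratios, markers, neighbours and gene lists are given without it only. All 8 hepatocyte markers were detected in all 6 groups. Nfkb1 was at 4.51 and 4.86 log2 CPM in the libraries labelled PiZ p50KO 1 and 2, and at 3.31, 3.74 and 3.37 in libraries 3 to 5, against 4.62 to 5.58 in PiZ and 3.92 to 4.34 in WT PBS. The Nfkb1 level thus differed among the 5 libraries labelled p50KO. Because the deleted part of Nfkb1 is not given, this level cannot show whether p50 is lost in any of them. The comparison with PiZ is also given without libraries 1 and 2.

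Levels are log2 CPM, the log2 of reads scaled to the size of the library, and ± after a level is the SD over libraries. A log2 fold change is a difference between the mean levels of 2 groups, with ± its standard error from limma. A gene was called when its two-sided p from limma, adjusted by Benjamini-Hochberg over all genes tested in that comparison, was under 0.05. These p-values measure only the spread between libraries. In bulk liver RNA, fewer cells of a type and less RNA per cell cannot be told apart.

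The bases upstream of 3 of these genes are shown because Apoa1 and Apoa2 fell both in PiZ livers and after tunicamycin while Apob was not called in either. They are from RefSeq, build GRCm38.p6, plus strand, chr9:46228380-46228579 for Apoa1, chr1:171224804-171225053 for Apoa2 and chr12:7977427-7977647 for Apob. All lie before the first annotated base of the gene. Both motifs were searched on both strands, and no matches overlapped. Capitals mark them: the FOXA motif TGTTTGC and TATAAA, the letters of the TATA box, wherever in the window they lay.
Apoa1: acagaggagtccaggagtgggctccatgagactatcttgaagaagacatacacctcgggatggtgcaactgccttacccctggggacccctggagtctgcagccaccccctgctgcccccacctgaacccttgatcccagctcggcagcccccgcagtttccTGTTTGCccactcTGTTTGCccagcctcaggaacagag
Apoa2: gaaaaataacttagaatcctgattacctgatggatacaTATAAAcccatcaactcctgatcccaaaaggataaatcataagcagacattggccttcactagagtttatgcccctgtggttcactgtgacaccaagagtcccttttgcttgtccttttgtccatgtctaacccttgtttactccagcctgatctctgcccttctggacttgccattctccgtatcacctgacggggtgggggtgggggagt
Apob: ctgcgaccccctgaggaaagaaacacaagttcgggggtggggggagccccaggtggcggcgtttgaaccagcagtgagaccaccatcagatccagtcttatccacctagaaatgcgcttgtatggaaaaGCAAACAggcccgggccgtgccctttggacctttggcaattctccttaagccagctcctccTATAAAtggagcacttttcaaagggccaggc
Windows of 250 bases before the RefSeq start were at hand for 8 of the 10 genes, all but Apoc1 and Apoc3. The FOXA motif, read by liver-enriched forkhead factors, was in 3 of the 8 (2 copies in Apoa1, 1 each in Apoa5 and Apob), and in 4.30% of 32851 windows of all genes. TATAAA was in 3 (Apoa2, Apoa5 and Apob) against 12.4% of all windows. It lay 212 to 207 bases before the RefSeq start in Apoa2, 56 to 51 in Apoa5 and 60 to 55 in Apob. The FOXA motif was thus found upstream of a gene that fell (Apoa1) and of one that was not called (Apob). After tunicamycin, however, Apob lay near the threshold (-0.50, adjusted p = 0.0587). With libraries shifted to the same median it was called lower there (-0.95, adjusted p = 0.0108), beside 29.2% of all genes. These matches describe letters only, and no binding was measured.

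In WT PBS livers the 10 genes took 5.15% ± 0.34 of all reads (SD, n = 5). Per kilobase of exon, the level of Apoa2 came first, with 14250 CPM per kb, before Apoe (9185), Apoa1 (8557) and Apoc1 (7408). Apoc3 (1379) and Apoh (1099) stood lower, then Apob (282), Apom (224), Apoa5 (181) and Apoa4 (26.9). Apob has the longest exons of the 10, 13934 bases, so its place per kilobase is lower than its place by reads. Apoe, Apoa1 and Apoc1 were neighbours in this order with log2 values per kb of 13.16, 13.06 and 12.85, next to SDs of 0.20, 0.19 and 0.13, so Apoe and Apoa1 did not differ beyond their spread. Apom and Apoa5, at 7.81 and 7.50 with SDs of 0.26 and 0.41, did not either. Apoa4, a gene of lipid absorption that the intestine expresses more than the liver, was the lowest of the 10 in each of the 6 groups.

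**Figure D1:**
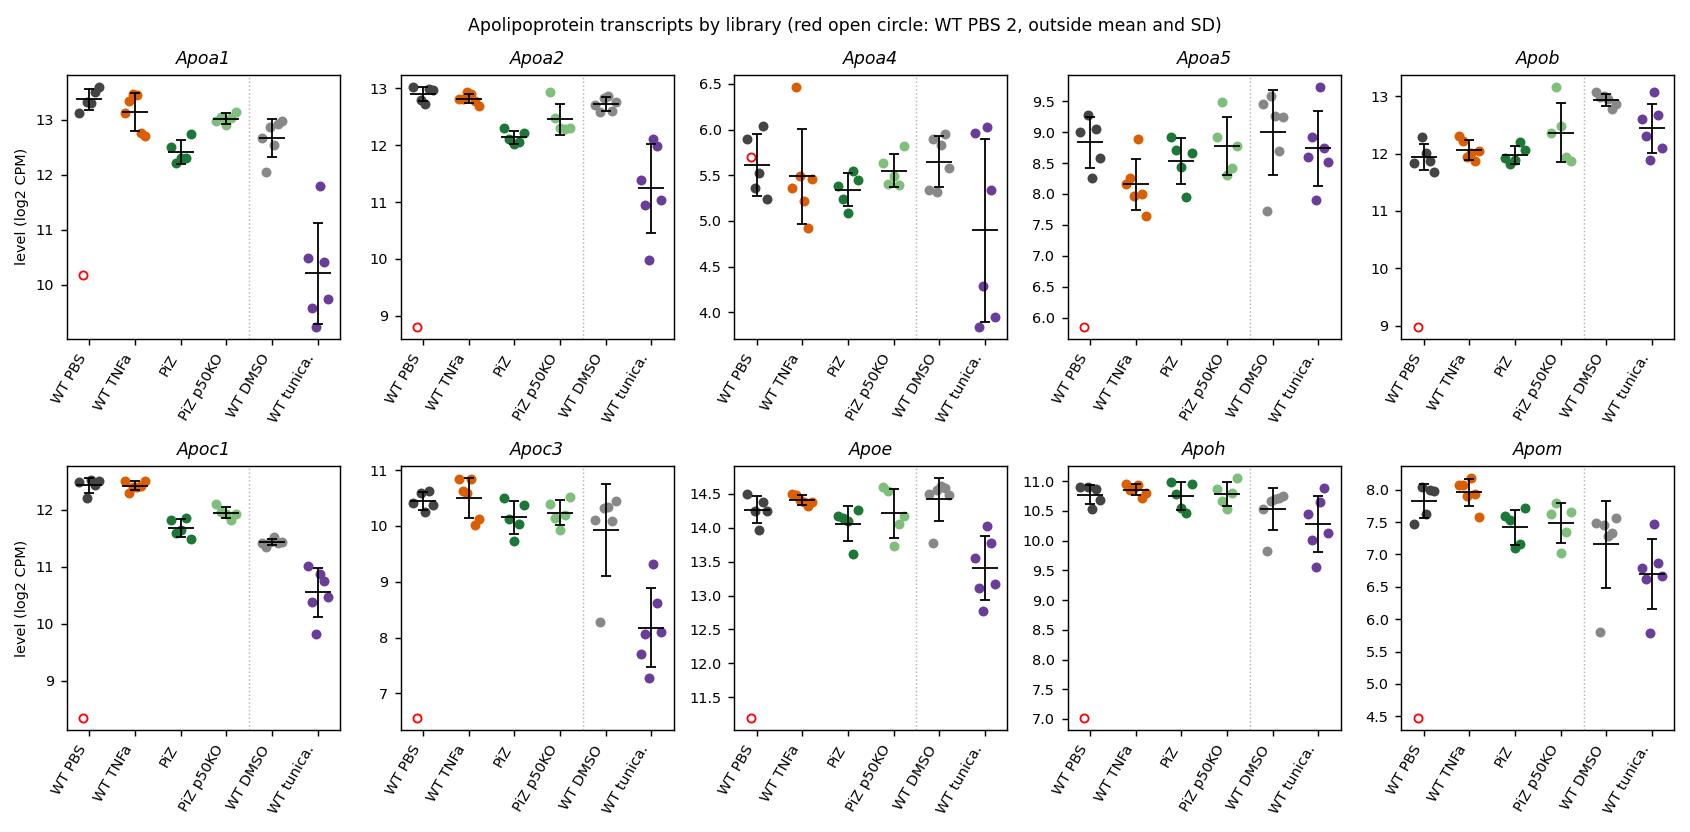
Level (log2 CPM) of each of the 10 genes in every library, by group; the vertical axis differs between panels, black bars are the mean ± SD, the red open circle is WT PBS library 2, left out of its mean, and the dotted line parts the first table from the second. Apoa1, Apoa2 and Apoc1 are lower in all PiZ libraries than in WT PBS libraries 1 and 3 to 6, and Apoa1 is lower in all 6 tunicamycin libraries than in all 6 DMSO libraries.

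PiZ and WT livers, both given PBS, were compared to ask how the Z variant bears on the liver's transcripts. Of the 10 apolipoprotein genes, 4 fell in PiZ, namely Apoa1, Apoa2, Apoc1 and Apom, and 0 rose. Of all 13285 genes tested, 6.19% were called lower and 45.6% higher. The median log2 fold change was -0.30 over the 10 genes and 0.40 over all genes tested. Apob, the VLDL scaffold, differed by 0.04 ± 0.18 (adjusted p = 0.871), with a 95% interval from -0.34 to 0.42.

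Of the HDL proteins, Apoa1 activates the enzyme that esterifies cholesterol on the particle. Its level was 12.50, 12.21, 12.30, 12.30 and 12.75 in PiZ libraries 1 to 5 and 13.12, 13.31, 13.30, 13.50 and 13.60 in WT PBS libraries 1 and 3 to 6. The groups did not overlap. Apoa1 was 1.94-fold lower in PiZ, a log2 fold change of -0.96 ± 0.15 (adjusted p = 2.86e-05).

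Apoa2, the other main HDL protein, was at 12.30, 12.11, 12.03, 12.06 and 12.21 in PiZ and at 13.03, 12.79, 12.73, 12.99 and 12.97 in WT PBS. Here too the lowest WT library lay above the highest PiZ library. The log2 fold change was -0.76 ± 0.12 (adjusted p = 2.06e-05), or 1.69-fold lower. Apom, a lipocalin that carries sphingosine phosphate on HDL, was at 7.60, 7.53, 7.11, 7.17 and 7.71 in PiZ and at 7.47, 8.04, 7.63, 8.0 and 7.99 in WT PBS. Its groups overlapped, and its log2 fold change was -0.40 ± 0.16 (adjusted p = 0.0396). The Apom call rested on single libraries: it was lost on leaving out PiZ 3 or 4 or WT PBS 3, 5 or 6, with adjusted p up to 0.116. It was also lost with no filter on low values (adjusted p = 0.0822).

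Among the proteins that move between particles, Apoc1, a small protein of VLDL and HDL that hinders uptake by receptors, was at 11.81, 11.59, 11.65, 11.86 and 11.49 in PiZ. It was at 12.49, 12.20, 12.51, 12.44 and 12.50 in WT PBS, with no overlap. The log2 fold change of Apoc1 was -0.75 ± 0.095 (adjusted p = 2.70e-06), or 1.68-fold lower. Apoc3, which inhibits lipoprotein lipase, differed by -0.30 ± 0.17 (adjusted p = 0.148). Apoa5, which aids that lipase, differed by -0.30 ± 0.24 (adjusted p = 0.315), and Apoe, a ligand for the uptake of particles, by -0.21 ± 0.16 (adjusted p = 0.279). None of these 3 was called, and their groups overlapped. Apoa4 (-0.27 ± 0.21, adjusted p = 0.286) and Apoh, a phospholipid-binding plasma glycoprotein (-0.03 ± 0.12, adjusted p = 0.850), were not called. Groups without overlap, with PiZ lower, were seen in 3 of the 10 genes and in 4.36% of all genes.

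With WT PBS library 2 kept, 0 of the 10 genes were called in either direction (2.22% of all genes lower, 15.1% higher), and Apoa1 differed by -0.43 ± 0.61, Apoa2 by -0.08 (adjusted p = 0.963), Apoc1 by -0.07 (adjusted p = 0.966) and Apob by 0.53. With every library shifted to the same median, 9 of the 10 were called lower, all but Apob, beside 22.5% of all genes lower and 17.4% higher. With quantile normalization 5 were called lower, beside 20.8% of all genes, namely Apoa1 (-0.57), Apoa2 (-0.44), Apoc1 (-0.42), Apom (-0.54) and Apoa4 (-0.63, adjusted p = 0.0269). With every library shifted to the same mean of 31 other secreted hepatocyte proteins, such as albumin and transferrin, a scale chosen after seeing the data, the same 4 genes were called lower (5.49% of all genes): Apoa1 (-0.91), Apoa2 (-0.71), Apoc1 (-0.69) and Apom (-0.35). Of those 31 proteins 12 were called lower and 4 higher in PiZ, with a median of -0.17, and Alb differed by -0.13 ± 0.18 (adjusted p = 0.556).

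Markers of other cell types moved with the PiZ group. The summed level of 12 macrophage markers, none at 0, was 780 to 1217 CPM in PiZ and 280 to 352 CPM in WT PBS. That of 9 stellate cell and fibroblast markers was 676 to 1032 CPM against 146 to 172 CPM, and that of 6 cholangiocyte markers 82.9 to 125 CPM against 23.4 to 26.9 CPM. The hepatocyte markers summed to 72088 to 101650 CPM in PiZ and 83572 to 111400 CPM in WT PBS, and 2 of 8 were called lower. The part of this shift in the lower apolipoprotein levels was not tested.

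**Figure D2:**
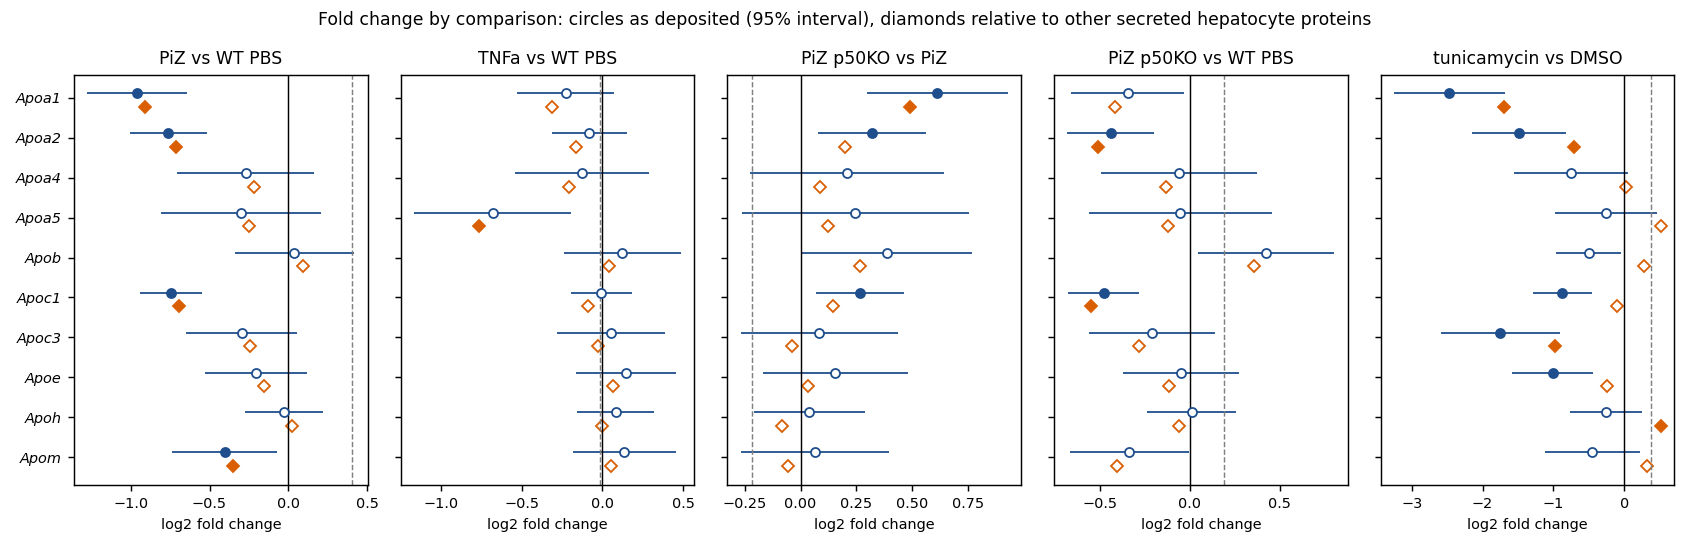
Log2 fold change of each gene in the 5 comparisons. Circles with 95% intervals use the deposited values, diamonds use libraries shifted to the same mean of other secreted hepatocyte proteins, filled symbols are called (adjusted p under 0.05), and the dashed line is the median of all genes tested; the horizontal axes differ. Apoa1, Apoa2, Apoc1 and Apom are filled on both scales in PiZ against WT, and Apoc1 and Apoe only on the deposited scale after tunicamycin.

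WT livers at 2 hours after TNFa were compared with the same WT PBS livers, so this comparison and that of PiZ share their controls. None of the 10 genes was called by limma, beside 7.63% of all genes higher and 4.05% lower, and 1 of the 10 had an unadjusted p under 0.05. The 10 log2 fold changes ran from -0.68 to 0.15, with a median of 0.02 against -0.016 over all genes tested. The share of reads taken by the 10 genes was 5.20% ± 0.36 (n = 6), against 5.15% ± 0.34 in WT PBS.

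The gene with the greatest difference was Apoa5, the activator of lipolysis. Its level after TNFa was 7.64 at the lowest, 8.08 at the median and 8.90 at the highest, in WT TNFa 4. In WT PBS libraries 1 and 3 to 6 it was 8.99, 9.28, 8.26, 9.05 and 8.59. All TNFa libraries but 1 lay below all WT PBS libraries, and WT TNFa 4 lay within them. The log2 fold change was -0.68 ± 0.23 (adjusted p = 0.0642). Leaving out 1 library at a time, 9 of 11 fits left Apoa5 uncalled, with adjusted p up to 0.164. It also stayed uncalled with a pseudocount of 1 CPM, with no filter and with a filter at 4 CPM. Apoa5 was called lower without WT TNFa 4 (-0.83, adjusted p = 0.0115), where 2095 genes were called in either direction, and without WT PBS 4 (-0.82, adjusted p = 0.0305). On the scale of other secreted proteins it was called lower as well (-0.76, adjusted p = 0.0154, with 5.37% of all genes called lower). It was called lower too with quantile normalization (-0.72, with 5.02% of all genes lower) and with array weights, which give less weight to libraries that vary more (-0.76, with 10.1% of all genes lower). With WT PBS library 2 kept it differed by -0.18 ± 0.41 (adjusted p = 0.799). Nfkb1 itself was at 4.77 in WT TNFa 4 and at 6.57 to 6.95 in the other 5.

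Apoa1 was at 12.71 at the lowest, 13.24 at the median and 13.47 at the highest after TNFa, a log2 fold change of -0.23 ± 0.15 (adjusted p = 0.406). Its values overlapped those of WT PBS. The differences of the other 8 genes lay between -0.12 (Apoa4) and 0.15 (Apoe), each with an adjusted p of 0.668 or more. For Apoc1, the most precisely measured, the 95% interval of the difference ran from -0.20 to 0.18. The 10 pancreatic acinar markers summed to 3860 CPM in WT TNFa 5 and 252 CPM in WT TNFa 6, and to 0.302 to 13.3 CPM in the other 4. Those 2 libraries also held the lowest Apoa1 levels after TNFa, 12.76 and 12.71, and the part of this tissue in them was not tested.

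Livers labelled PiZ p50KO were compared with PiZ livers to ask what p50 contributes in PiZ, as the series' title puts forward. Of the 10 genes, Apoa1, Apoa2 and Apoc1 rose and 0 fell, beside 3.36% of all genes called higher and 21.6% lower. All 10 log2 fold changes were above 0, with a median of 0.23 against -0.22 over all genes tested. Transcripts of other secreted hepatocyte proteins moved alike: 7 of 31 were called higher (22.6%) and 1 lower (3.23%), with a median of 0.18. The PiZ libraries enter this comparison and that with WT, so a low value in PiZ by itself gives opposite signs in both.

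Apoa1 was at 12.98, 13.06, 12.89, 13.03 and 13.15 in the libraries labelled PiZ p50KO 1 to 5. Each lay above the highest PiZ library (12.75), and 1.64% of all genes were likewise higher without overlap. The log2 fold change was 0.61 ± 0.15 (adjusted p = 0.00585), or 1.53-fold higher. Leaving out any 1 library, adjusted p for Apoa1 ran from 0.00367 to 0.0215. On the scale of other secreted proteins it was 0.49 (adjusted p = 0.0186, with 2.48% of all genes called higher). With WT PBS library 2 in the fit, which enlarges the pooled spread, the same difference had an adjusted p of 0.723, and after quantile normalization it was 0.39 (adjusted p = 0.119).

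Apoa2 was at 12.93, 12.47, 12.31, 12.28 and 12.31 in the p50KO libraries. Only library 1 stood clear of the others, and the groups overlapped. Its log2 fold change was 0.32 ± 0.12 (adjusted p = 0.0491). Apoc1 was at 12.10, 11.96, 11.93, 11.82 and 11.93, a log2 fold change of 0.27 ± 0.095 (adjusted p = 0.0457). Both calls lay near the threshold. Without PiZ 2, 3 or 5 or p50KO 1 or 2, Apoa1 alone was called, and Apoa2 also lost its call without PiZ 4 and Apoc1 without p50KO 3 or 5. On the scale of other secreted proteins, neither Apoa2 (0.20, adjusted p = 0.120) nor Apoc1 (0.14, adjusted p = 0.307) was called.

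Without p50KO libraries 1 and 2, in which Nfkb1 was highest, 1 of the 10 genes was called, beside 1.58% of all genes called higher, and it was Apoa1 (0.61, adjusted p = 0.0354). Apob was higher in p50KO libraries 1, 2 and 3 (12.35, 13.17 and 12.48) than in libraries 4 and 5 (11.94 and 11.87), and its difference from PiZ was 0.39 ± 0.18 (adjusted p = 0.127). Leaving out 1 library at a time, Apob was called higher in 1 of 10 fits, without p50KO 5 (0.51, adjusted p = 0.0433). The other 9 left it uncalled, with adjusted p up to 0.388, and without p50KO 2 the difference was 0.19. Apoe was at 14.59 and 14.54 in libraries 1 and 2 and at 13.72, 14.05 and 14.17 in libraries 3 to 5. Without libraries 1 and 2, the differences of Apoa5, Apoe and Apom from PiZ turned to -0.04, -0.08 and -0.08. The summed macrophage markers were 415 to 736 CPM and the stellate markers 213 to 443 CPM in the p50KO libraries, both below the PiZ range. The acinar markers ran from 2.30 CPM to 1200 CPM (library 4), against 2.45 to 75.8 CPM in PiZ. The part of these markers in the higher Apoa1 level was not tested.

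Against WT PBS, a comparison the series' design does not name, the p50KO livers had lower Apoc1 (-0.48 ± 0.095, adjusted p = 0.00558) and Apoa2 (-0.44 ± 0.12, adjusted p = 0.0214). These were 2 of the 10 genes, beside 1.14% of all genes called lower and 10.5% higher. Apoa1 was -0.35 ± 0.15 (adjusted p = 0.135), with a 95% interval from -0.66 to -0.03. The Apoa2 call was lost without p50KO 4 or 5 or WT PBS 5 or 6, with adjusted p up to 0.0627. With WT PBS library 2 kept, 0 of the 10 were called (0.00743% of all genes lower, 0.0817% higher).

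WT livers at 24 hours after tunicamycin were compared with WT livers given DMSO, the vehicle. Apoa1, Apoc3, Apoa2, Apoe and Apoc1 fell, 5 of the 10 genes, and 0 rose, beside 13.5% of all 13388 genes tested called lower and 45.3% higher. All 10 log2 fold changes were below 0, with a median of -0.81 against 0.38 over all genes. The share of reads taken by the 10 genes was 2.50% ± 0.87 after tunicamycin and 4.97% ± 0.65 after DMSO (n = 6 each).

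Apoa1 was at 9.23 at the lowest, 10.08 at the median and 11.79 at the highest after tunicamycin. After DMSO it was at 12.05, 12.77 and 12.97. The groups did not overlap, and the spread after tunicamycin (SD 0.92) was wider than after DMSO (SD 0.35). Apoa1 was 5.53-fold lower, a log2 fold change of -2.47 ± 0.36 (adjusted p = 1.13e-04), and 0.941% of genes tested had a lower log2 fold change. Apoa2 was at 9.98, 11.21 and 12.11 after tunicamycin and at 12.58, 12.73 and 12.87 after DMSO, again without overlap. Its log2 fold change was -1.48 ± 0.31 (adjusted p = 0.00114).

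Apoc1 was at 9.83, 10.61 and 11.02 after tunicamycin and at 11.35, 11.43 and 11.53 after DMSO. The DMSO libraries lay within a narrow range, all above the tunicamycin libraries, and the log2 fold change was -0.88 ± 0.19 (adjusted p = 0.00179). Groups without overlap, tunicamycin lower, were seen in these 3 of the 10 genes and in 4.76% of all genes. Apoc3, the lipase inhibitor, was at 7.29, 8.08 and 9.32 after tunicamycin and at 8.28, 10.21 and 10.45 after DMSO. The overlap came from WT DMSO 2, at 8.28, while the other 5 DMSO libraries were at 10.09 or above. The log2 fold change of Apoc3 was -1.75 ± 0.39 (adjusted p = 0.00192), and -2.08 without WT DMSO 2.

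Apoe was at 12.77, 13.36 and 14.03 after tunicamycin and at 13.78, 14.52 and 14.62 after DMSO, a log2 fold change of -1.01 ± 0.26 (adjusted p = 0.00521). The groups overlapped through WT DMSO 2. The Apoe call was lost with quantile normalization (-0.30, adjusted p = 0.454), where 6 of the 10 genes and 26.5% of all genes were called lower, and with no filter on low values (adjusted p = 0.115). Apob was at 11.88, 12.46 and 13.07 after tunicamycin and at 12.77, 12.96 and 13.06 after DMSO, a log2 fold change of -0.50 ± 0.21 (adjusted p = 0.0587). It was called lower (-0.63, adjusted p = 0.0132) without the tunicamycin library with the highest Apob. Apom was -0.45 ± 0.31 (adjusted p = 0.224), and -0.72 (adjusted p = 0.0134) without WT DMSO 2.

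Apoa4 was spread widely after tunicamycin, from 3.84 to 6.02, and its difference was -0.75 ± 0.37 (adjusted p = 0.0965). Without tunicamycin library 1, or without the library with the highest Apoa4, it was called lower (-0.96, adjusted p = 0.0329, and -0.98, adjusted p = 0.0256). Apoa5 (-0.26 ± 0.33, adjusted p = 0.518) and Apoh (-0.25 ± 0.23, adjusted p = 0.362) were not called. Per kilobase of exon, Apoa1 went from the third place of the 10 after DMSO to the fourth after tunicamycin and Apoc3 from the fifth to the seventh, while Apoe replaced Apoa2 in the first. The log2 levels per kb of Apoe and Apoa2 after tunicamycin, 12.31 and 12.14 with SDs of 0.47 and 0.78, did not differ beyond their spread.

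Transcripts of other secreted hepatocyte proteins fell as well after tunicamycin: 21 of 31 were called lower and 1 higher, with a median of -0.74. Alb differed by -1.31 ± 0.31 (adjusted p = 0.00309). With libraries shifted to the same mean of these 31, 3 of the 10 genes were called lower, beside 4.00% of all genes: Apoa1 (-1.69, adjusted p = 1.24e-05), Apoc3 (-0.98, adjusted p = 0.00573) and Apoa2 (-0.71, adjusted p = 0.00192). On that scale Apoe was -0.24 (adjusted p = 0.0853) and Apoc1 -0.10 (adjusted p = 0.565), and Apoh was called higher (0.52, adjusted p = 0.00708), beside 74.4% of all genes. With every library shifted to the same median, 9 of the 10 were called lower, all but Apoa5, beside 29.2% of all genes lower and 24.1% higher. With array weights all 10 were called lower, beside 25.1% of all genes. The directions for Apoa4, Apoa5, Apob, Apoh and Apom thus depend on the scale, and Apoa1, Apoa2 and Apoc3 were called lower on all 3 scales.

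The hepatocyte markers summed to 28497 to 69327 CPM after tunicamycin and 81951 to 111610 CPM after DMSO, sums in which Alb has the greatest part. Of the 8 markers 2 were called lower and 1 higher, with a median log2 fold change of -0.40. The pancreatic acinar markers summed to 0.0516 to 1172 CPM after tunicamycin and 0.341 to 12.6 CPM after DMSO. Of 7 enterocyte markers, of interest because the intestine also makes Apoa1, Apoa4, Apob and Apoc3, 1 passed the filter; their sum was 5.02 to 22.6 CPM after tunicamycin and 29.1 to 50.6 CPM after DMSO. In PiZ that sum was 12.8 to 19.4 CPM against 31.9 to 54.5 CPM in WT PBS, and Sis, which marks the intestinal brush border, was at 0 in both groups. In both comparisons only 1 enterocyte marker was tested. It was called lower after tunicamycin (-2.10) and in PiZ (-1.43), beside 13.5% and 6.19% of all genes. In p50KO against PiZ the 1 marker tested was called higher (0.99), beside 3.36% of all genes, and the sum in p50KO was 26.1 to 45.7 CPM. After TNFa it was not called (-0.29). The sums thus lean on few genes, and the part of intestinal tissue in the apolipoprotein levels was not tested.

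**Figure D3:**
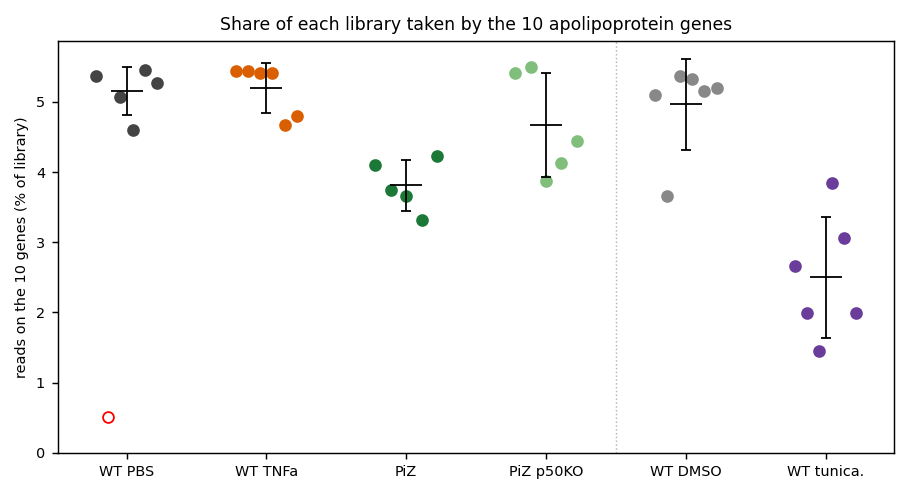
Reads on the 10 genes as a percentage of each library, by group; black bars are the mean ± SD, the red open circle is WT PBS library 2, left out of its mean, and the dotted line parts the tables. PiZ libraries lie at 3.32% to 4.23%, below WT PBS libraries 1 and 3 to 6 at 4.60% to 5.46%, and tunicamycin libraries at 1.45% to 3.85%.

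A ratio of 2 genes within a library is not changed by a shift common to all genes of that library. Quantile normalization is no such shift and can change it. The pairs given here were chosen after the values were seen and are described without a test. The log2 ratio of Apoa1 over Apob was 0.43 ± 0.23 in PiZ (0.09 to 0.69) and 1.43 ± 0.35 in WT PBS (1.03 to 1.92), with no overlap. It was 1.08 ± 0.35 after TNFa and 0.66 ± 0.55 in the p50KO libraries, whose range from -0.11 to 1.27 took in all PiZ libraries. After tunicamycin it was -2.24 ± 0.52 (-2.73 to -1.28), and after DMSO -0.27 ± 0.40 (-0.93 to 0.16), again with no overlap. The Apoa1 transcript was thus lower relative to the Apob transcript both in PiZ and after tunicamycin. The proteins were not measured.

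The log2 ratio of Apoa1 over its neighbour Apoc3 was 2.26 ± 0.23 in PiZ, 2.92 ± 0.22 in WT PBS and 2.79 ± 0.17 in the p50KO libraries. PiZ values (2.00 to 2.56) overlapped with neither of the other 2 groups, which overlapped with each other. After TNFa the ratio was 2.64 ± 0.20 (2.29 to 2.88), which overlapped with both PiZ and WT PBS. After tunicamycin this ratio was 2.03 ± 0.50 and after DMSO 2.74 ± 0.54, and the groups overlapped.

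In the GRCm38 annotation, 6 of the 10 genes lie in 2 clusters. Apoa1 (9:46228580-46230466, plus strand), Apoc3 (9:46232933-46235636, minus), Apoa4 (9:46240696-46243459, plus) and Apoa5 (9:46268633-46271919, plus) share 1 cluster, with 40053 bases between the first bases of Apoa1 and Apoa5. Apoc1 (7:19689481-19692660) and Apoe (7:19696109-19699188), both on the minus strand, lie next to each other. The other 4 stand apart: Apoa2 at 1:171225054-171226379, Apob at 12:7977648-8016835, Apoh at 11:108343354-108414396 and Apom at 17:35128997-35132050. Apoh overlaps the start of Prkca, which lies on the other strand. Prkca reached at most 3.21 log2 CPM in WT PBS, against 10.53 to 10.90 for Apoh, and whether reads were counted by strand is not given in the sources used here.

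Within the chromosome 9 cluster, the differences were unequal. In PiZ, Apoa1 was called and Apoc3, Apoa4 and Apoa5 were not, with differences of -0.96, -0.30, -0.27 and -0.30. After tunicamycin they were -2.47, -1.75, -0.75 and -0.26 in chromosomal order, of which the first 2 were called. Of the neighbours within 60 kb that passed the filter, Sik3 was at -0.02 in PiZ and 0.01 after tunicamycin. Zpr1 rose in both (0.74 ± 0.16, adjusted p = 6.47e-04, and 1.23 ± 0.17, adjusted p = 7.86e-05), as did Bud13 (0.56 and 0.61).

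On chromosome 7, Apoc1 was called in PiZ (-0.75) and Apoe was not (-0.21), while both were after tunicamycin (-0.88 and -1.01). Apoc4, the next gene of the family, was at -0.32 ± 0.17 in PiZ (adjusted p = 0.125) and -0.26 ± 0.32 after tunicamycin (adjusted p = 0.505). Tomm40, a mitochondrial import channel gene on the other side of Apoe, was at -0.09 in PiZ and rose after tunicamycin (1.16 ± 0.25, adjusted p = 0.00146). Bcam, which encodes an adhesion molecule, rose in PiZ (1.45 ± 0.25, adjusted p = 7.17e-05). Of the neighbours tested, 3 on chromosome 9 and 5 (PiZ) or 6 (tunicamycin) on chromosome 7, 0 were called lower by limma and 3 were called higher in each comparison. Of all genes, 6.19% (PiZ) and 13.5% (tunicamycin) were called lower, and 45.6% and 45.3% higher. Counts this small thus do not set the neighbours apart from other genes.

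**Figure D4:**
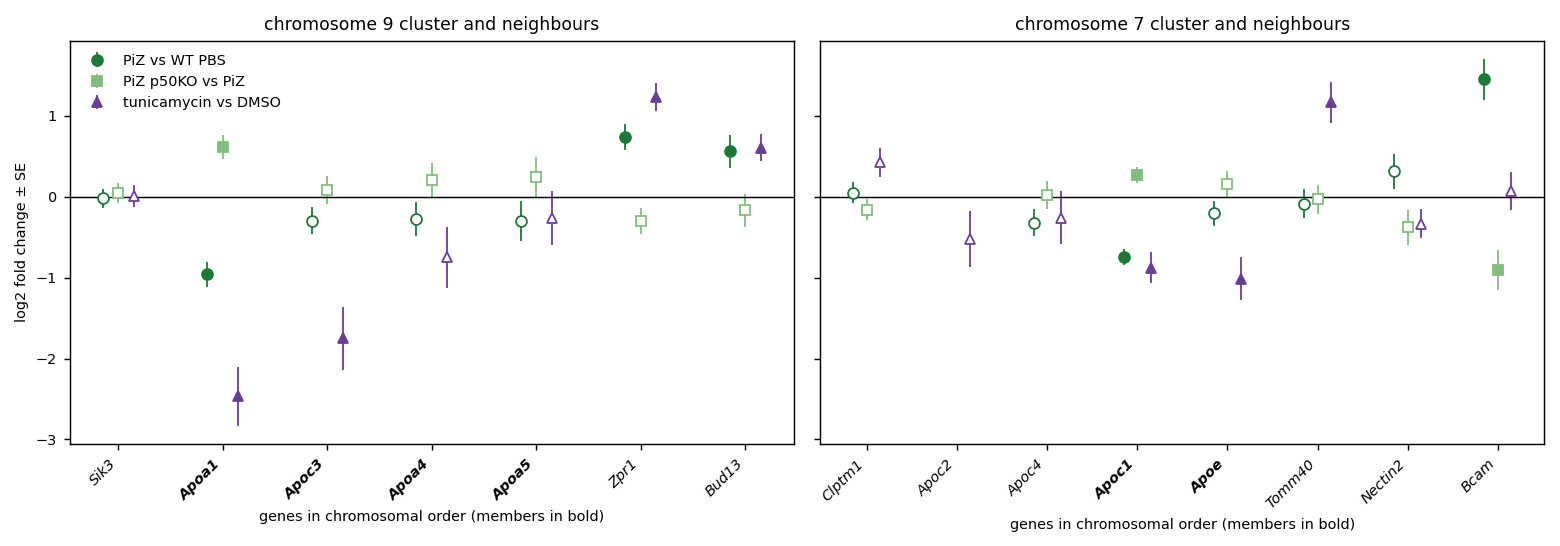
Log2 fold change ± SE of the clustered apolipoprotein genes (bold) and their neighbours within 60 kb, in chromosomal order, for 3 comparisons; filled symbols are called. Apoa1 and Apoc3 lie at -2.47 and -1.75 after tunicamycin, while Zpr1 and Bud13, next to Apoa5, lie above 0 in PiZ and after tunicamycin.

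Over the 21 libraries of the first table, Apoa5 varied most of the 10 (SD 0.48) and Apoh least (SD 0.17). The 5 genes whose centred levels lay closest to those of Apoa5, by root mean square difference, were Rhobtb2 (0.22), Zfp707 (0.25), Nags (0.25), Sec22c (0.25) and Cxxc5 (0.25), against a median of 0.57 over all genes tested. Over the 12 libraries of the second table, Apoa1 varied most (SD 1.45) and Apob least (SD 0.40). The genes closest to Apoa1 were Scnn1a (0.24), the pseudogene Mug-ps1 (0.25), the complement gene C6 (0.26), Proz (0.27) and Slc17a2 (0.27), against a median of 1.60. These libraries share their tables' groups, so such likeness includes the difference between treatments.

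Other genes of lipoprotein metabolism moved in both directions. The counts below stand beside the shares of all genes called higher and lower, which were 45.6% and 6.19% in PiZ, 7.63% and 4.05% after TNFa, 3.36% and 21.6% in p50KO against PiZ, and 45.3% and 13.5% after tunicamycin. Among 16 measured apolipoprotein-named and HDL-associated genes outside the 10, 8 rose, a share near the 45.6% of all genes, and 3 fell (18.8%) in PiZ, led by Saa2 (3.14 ± 0.60) and Saa1 (2.00 ± 0.52), acute-phase proteins that bind HDL, and by Apol9a (2.35 ± 0.43). Saa1 and Saa2 are near-identical copies, as are Apol9a and its relative Apol9b, so the counting may have split their reads and each single value is uncertain. After TNFa 3 rose and 0 fell, again with Saa2 (3.94 ± 0.58) and Saa1 (2.34 ± 0.50) and also Saa4 (0.66 ± 0.19). After tunicamycin 2 rose and 5 fell, among them Saa4 (-2.85 ± 0.35), Clu, the HDL protein clusterin (-1.93 ± 0.28), and Apon (-0.92 ± 0.24). In p50KO against PiZ 3 rose and 3 fell, among them Saa4 (1.15 ± 0.20), Pon1 (0.39 ± 0.11) and Pon3 (-0.40 ± 0.10), the latter 2 HDL-bound hydrolases.

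Of 21 genes of lipoprotein assembly and secretion, 10 rose (47.6%, near the 45.3% of all genes) and 5 fell (23.8%) after tunicamycin. P4hb, a subunit of the complex that loads fat onto Apob, was at 2.67 ± 0.16, Surf4, a cargo receptor for export from the ER, at 1.77 ± 0.26 and Hdlbp at 1.68 ± 0.14. In PiZ 7 rose (33.3%, below the 45.6% of all genes) and 1 fell, with Smlr1 (1.69 ± 0.11), Apobec1, which edits Apob transcripts (1.38 ± 0.20), and P4hb (0.88 ± 0.14). Smlr1 fell in p50KO against PiZ (-1.61 ± 0.11), 1 of 2 that fell while 0 rose. After TNFa 3 rose and 2 fell, among them Dgat2 (0.87 ± 0.25), which makes triglyceride, Abca1 (0.79 ± 0.18), which loads lipid onto Apoa1, and Apobec1 (0.80 ± 0.19). The Apob transcript itself was not called in any of these 4 comparisons.

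Among 12 lipases and remodelling genes, Lpl, lipoprotein lipase, rose in PiZ (3.90 ± 0.31) and fell in p50KO against PiZ (-2.68 ± 0.31), with 3 rising and 3 falling in PiZ and 1 each way in p50KO. After tunicamycin 3 rose and 4 fell, with the endothelial lipase Lipg at -2.58 ± 0.48 and Angptl4, an inhibitor of lipoprotein lipase, at 2.05 ± 0.40. After TNFa Lipg fell (-1.13 ± 0.31) and Pla2g12b rose (0.76 ± 0.18). Of the receptors and uptake genes, 5 of 15 rose and 1 fell in PiZ (33.3% and 6.67%, against 45.6% and 6.19% of all genes), led by Cd36 (1.59 ± 0.28), a fatty acid receptor, and Vldlr (1.25 ± 0.37), and 0 rose and 2 fell in p50KO, which were Vldlr (-2.04 ± 0.37) and Cd36 (-0.89 ± 0.28). After TNFa 0 of 15 rose and 3 fell, among them Mylip (-1.35 ± 0.27), and after tunicamycin 1 of 14 rose, Vldlr (1.61 ± 0.27), and 3 fell.

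Of 26 measured transcriptional regulators of apolipoprotein genes, 1 rose and 4 fell in PiZ (3.85% and 15.4%, against 45.6% and 6.19% of all genes), among them Srebf1 (-1.14 ± 0.44), a regulator of fat synthesis, Mlxipl (-0.63 ± 0.23) and Creb3l3 (-0.42 ± 0.17), an ER-bound factor of the liver. After TNFa 3 rose and 6 fell (11.5% and 23.1%, against 7.63% and 4.05%), with Nr0b2, a repressor of nuclear receptors, at -3.65 ± 0.70, Cebpb at 1.66 ± 0.39 and Nr5a2 at 1.43 ± 0.21. After tunicamycin 4 rose and 7 fell (15.4% and 26.9%, against 45.3% and 13.5%), with Srebf1 at -3.23 ± 0.45, Nr0b2 at -1.62 ± 0.38 and Ppara, the fatty acid sensor, at -1.02 ± 0.30. In p50KO against PiZ, Mlxipl rose (0.85 ± 0.23), 1 of 26, and 0 fell. All genes named here as having risen or fallen were called by limma.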

How the data were processed

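Liver RNA was sequenced in 22 libraries (first table) and 12 libraries (second table). The deposited values are moderated log2 CPM per gene; the submitters' processing notes name bcl2fastq, DRAGEN, STAR, Subread featureCounts and edgeR with build GRCm38, and other settings are not given in the sources used here. Because the values are log2 and not counts, limma 3.58.1 (trend, R 4.3.3) was used, with all groups of a table in 1 fit and WT PBS library 2 left out. Genes above 1 CPM in at least 5 (first) or 6 (second) libraries were tested, 13285 and 13388, and p-values were adjusted by Benjamini-Hochberg. The fits were tested on simulated data. The 287 repeated rows were identical and dropped. Whole reads were recovered from the steps between low values (100.0% whole within 0.1 read). They served for depth, reads per gene, shares of reads, summed marker levels and markers at 0, and not for the limma tests. Groups follow the labels; 3 tunicamycin columns whose names disagree with their labels were kept as unnumbered members of that group. The named members were fixed by symbol, and for each of 6 gene lists up to 3 called genes with the largest changes were named. A few genes that this rule names are not reported here. The members and lists were chosen with earlier results of these data known. Longer motifs of other factors were also searched upstream and are not reported here. Intervals are 95%. Alternatives were a pseudocount of 1 CPM, no filter, a filter at 4 CPM, median, quantile and secreted-protein scaling, array weights, only the groups compared, a replicate block, and leaving out libraries.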

Additional observations from a re-analysis of the deposited data

Results flagged for a closer look

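In 70 groups of 5 or 6 libraries, 16 held a highest or lowest level further from the others than Dixon's 95% critical value allows. Chance gives this in about 1 in 20 groups. WT PBS library 2 was the low library in 9 of the 16, at 10.18 log2 CPM for Apoa1, 8.80 for Apoa2, 5.85 for Apoa5, 8.97 for Apob, 8.35 for Apoc1, 6.55 for Apoc3, 11.19 for Apoe, 7.01 for Apoh and 4.47 for Apom. Its Apoa4 level, 5.70, lay within the range of the others.

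WT DMSO 2 was the low library of its group for Apoc3 (8.28), Apoe (13.78), Apoh (9.83) and Apom (5.81). The other 3 were a high Apoa4 in WT TNFa 2 (6.47), a low Apoe in PiZ 4 (13.61) and, with WT PBS library 2 left out, a low Apoc1 in WT PBS 3 (12.20).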

How the results depend on the processing

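With WT PBS library 2 kept, 0 members were called in any comparison of the first table. Genes called fell to 2336 (PiZ against WT), 547 (TNFa), 468 (p50KO against PiZ) and 12 (p50KO against WT). Differences changed sign for Apoa5 (0.20), Apoc3 (0.35), Apoe (0.31), Apoh (0.60) and Apom (0.16) in PiZ, and for Apoa1 (0.30), Apoa2 (0.60) and Apoc1 (0.67) after TNFa. Against WT, p50KO differences turned to 0.19 (Apoa1), 0.24 (Apoa2), 0.44 (Apoa5), 0.20 (Apoc1), 0.44 (Apoc3), 0.46 (Apoe) and 0.22 (Apom). In p50KO against PiZ, 1 member (Apoa1) was called with a pseudocount, with no filter, with only the groups compared (2180 genes) and without p50KO 1 and 2 (1530 genes). Against WT, 0 were called with no filter (819 genes) or only the groups compared (225 genes), and 2497 genes without p50KO 1 and 2. There Apoa5, Apoe and Apom differed from PiZ by -0.035, -0.078 and -0.084.

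With the same median, members called were 9 lower in PiZ (Apob -0.45), 1 lower after TNFa (Apoc3 -0.0072), 5 higher in p50KO against PiZ, 4 lower against WT (1000 genes, Apoh -0.22) and 9 lower after tunicamycin. With quantile normalization, 5 were lower in PiZ (Apoa4 gained, -0.63) and 6 after tunicamycin (26.5% of all genes; Apoe lost, -0.30, adjusted p 0.454, and Apoa4, -1.20, and Apom, -0.84, gained), 1 was lower after TNFa (5.02% of all genes; Apoc1 0.0027, Apoc3 -0.0027), 0 higher in p50KO against PiZ (Apoh -0.11) and 1 lower against WT (595 genes, Apoe 0.15), and Apoh was at 0.14 in PiZ. Array weights gave 1 lower after TNFa (3034 genes, 10.1% of all genes lower, Apoc3 -0.011), 10 lower after tunicamycin (25.1% of all genes lower), 5731 genes in p50KO against WT, and Apoe at -0.0053 against PiZ. With the same mean of secreted proteins, 1 was lower after TNFa, beside 5.37% of all genes (Apoc3 -0.029, Apoh -0.00067). In p50KO against PiZ 1 was higher, beside 2.48% (Apoc3 -0.037, Apoh -0.081, Apom -0.055). After tunicamycin 3 were lower, beside 4.0%, and 1 higher, beside 74.4% (Apoa4 0.024, Apoa5 0.52, Apob 0.28, Apoh 0.52, Apom 0.32). Apoh was then at 0.021 in PiZ and -0.060 in p50KO against WT (696 genes). Without TNFa 4 and 5, chosen after seeing the data, 1 was lower and Apoa4 was at 0.083. The share of all genes called lower in that fit is not given here. With no filter, Apom in PiZ (adjusted p 0.0822) and Apoe after tunicamycin (0.115) also lost their calls. The filter at 4 CPM left all 50 member results on their side of the threshold. The causes were not tested.

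Deviations of same-numbered libraries correlated at -0.233 to 0.564, with 5 of 21 over 0.1 and the highest for PiZ 4 and WT PBS 4. The numbers were not used as pairs in the main fits, though such correlations cannot exclude a shared batch. With a replicate block, 1 member was lower after TNFa (Apoc1 0.0092), 1 higher in p50KO against PiZ, and 795 genes were called in p50KO against WT (Apoh -0.00042), with Apob at -0.053 in PiZ. Shares of all genes called in each direction are not given here for the block. Over 3 numbered tunicamycin pairs with the block, adjusted p was 0.052 for Apoe and 0.0181 for Apom.

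Leaving out 1 library at a time, members called lower were 3 to 4 in PiZ, 0 to 1 after TNFa and 5 to 7 after tunicamycin. All genes called in either direction were then 6109 to 7497, 1165 to 2095 and 6973 to 8942. In p50KO against PiZ 1 to 3 members were higher (2236 to 3903 genes called), and against WT 1 to 2 were lower (697 to 2122 genes called). Signs changed for Apob (-0.025 to 0.13) and Apoh (-0.091 to 0.042) in PiZ, Apoc1 (-0.063 to 0.018) and Apoc3 (-0.013 to 0.15) after TNFa, and Apoc3 (-0.021 to 0.17), Apoh (-0.032 to 0.10) and Apom (-0.014 to 0.18) in p50KO against PiZ. Against WT they changed for Apoa4 (-0.15 to 0.045), Apoa5 (-0.23 to 0.068), Apoe (-0.14 to 0.074) and Apoh (-0.058 to 0.074).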
